A study of Homo sapiens with 12 samples.

Results

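The genes described here were the replication-dependent core histone genes, which encode the histones H2A, H2B, H3 and H4 that package newly made DNA. They were taken by symbol, as the genes whose names begin with HIST1H2, HIST1H3, HIST1H4, HIST2H, HIST3H or HIST4H, without pseudogene names and with at least 60 counts summed over 12 libraries. Of 60483 genes in the count table, 82 carried such a name, 13 of them had a pseudogene name, and 5 held fewer counts than the threshold. The remaining 64 genes were 15 H2A, 22 H2B, 13 H3 and 14 H4 genes. The HIST1 group on chromosome 6 held 45 of them, the HIST2 and HIST3 groups on chromosome 1 held 15 and 3, and HIST4H4 on chromosome 12 stood alone. The lowest gene inside the threshold, HIST2H2BD, held 297 counts, and the highest outside it, HIST1H2BA, held 32. The gene annotation marks 5 of the 64 as pseudogenes despite their names: HIST2H2BA, HIST2H2BB, HIST2H2BC, HIST2H2BD and HIST3H2BA.

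RNA was sequenced from HUDEP-2 cells, immortalized erythroid progenitors derived from human cord blood, before and after erythroid differentiation. Control cells carried a scrambled guide RNA (sgSCR, genotype WT in the labels), and knockout cells had a disrupted MBD2 gene (MBD2-/-), whose protein recognises methylated DNA and recruits the NuRD chromatin complex. There were 3 libraries in each of 4 groups, and the series asks how expression depends on MBD2 in a human erythroid model. Before differentiation, cells labelled early basophilic erythroblasts were in SFEM medium with SCF, EPO, DEX, DOX and L-Glu. After it, cells labelled late basophilic erythroblasts were in IMDM with human AB serum, EPO, DOX, insulin, heparin and holo-transferrin, so medium and stage changed together and cannot be told apart. Differentiation lasted 3 days by the extraction protocol and 5 days by the growth protocol, and the labels name neither a clone nor separate cultures. The p-values therefore measure only the spread between these libraries, which may be technical.

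Core histone genes lie in clusters and are switched on as cells enter S phase, when new DNA has to be wrapped. Their mRNAs lack the poly(A) tail that other mRNAs carry and end just past a stem-loop that stem-loop binding protein (SLBP) holds. The library kit took total RNA after removal of ribosomal and globin RNA, with no selection for poly(A) tails. In the maturing erythroid line the last cell divisions run alongside the changes that prepare the nucleus for condensation and loss.

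The stem-loop is shown because it sets these mRNAs apart from most others and differs by histone type. A search of the GENCODE release 29 transcripts for the histone 3′ stem-loop found a match in 34 of the 64 genes, and in 25 of the other 30 every transcript model stops at the end of the coding part. All matches read in 6 forms of 16 bases, printed 5′ to 3′ with the 4 loop bases in capitals.
Form in 18 genes (6 H2A, 9 H2B, 3 H3): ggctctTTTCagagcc
Form in 5 genes (all H4): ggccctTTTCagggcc
Form in 4 genes (3 H2B, 1 H3): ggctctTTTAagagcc
Form in 3 genes (all H4): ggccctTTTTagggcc
Form in 3 genes (1 H2A, 2 H2B): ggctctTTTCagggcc
Form in 1 gene (HIST1H3E): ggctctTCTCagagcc
The commonest form was found in H2A, H2B and H3 genes and in no H4 gene, while both forms with the ggccct stem were found in H4 genes alone. In 25 genes a transcript model ran 100 bases or more past the stem-loop, so these models also cover longer ends.

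Promoters are shown for 7 genes whose values carry the results below. RefSeq start sites (build GRCh38.p14) were matched for 49 of the 64 genes, and windows from 250 bases before to 50 after the start were searched on both strands for 5 short motifs. The printed stretches are the 120 bases before the start, on the strand of the gene, with motif matches in capitals. They lie at chr1:228457983-228458102 (plus strand, HIST3H2BB), chr1:228457874-228457993 (minus strand, HIST3H2A), chr1:149886798-149886917 (plus strand, HIST2H2AC), chr6:26033619-26033738 (minus strand, HIST1H2AB), chr6:26251494-26251613 (plus strand, HIST1H2BH), chr6:26285535-26285654 (minus strand, HIST1H4H) and chr12:14771132-14771251 (minus strand, HIST4H4).
HIST3H2BB: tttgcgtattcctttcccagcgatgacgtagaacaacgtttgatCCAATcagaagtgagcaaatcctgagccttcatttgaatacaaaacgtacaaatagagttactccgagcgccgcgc
HIST3H2A: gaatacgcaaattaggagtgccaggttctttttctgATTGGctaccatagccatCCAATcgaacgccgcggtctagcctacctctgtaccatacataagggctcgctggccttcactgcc
HIST2H2AC: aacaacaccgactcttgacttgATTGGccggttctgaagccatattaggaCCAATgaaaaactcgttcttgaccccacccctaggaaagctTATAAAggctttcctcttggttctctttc
HIST1H2AB: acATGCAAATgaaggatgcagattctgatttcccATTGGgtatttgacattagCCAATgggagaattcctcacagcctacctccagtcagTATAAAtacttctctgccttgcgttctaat
HIST1H2BH: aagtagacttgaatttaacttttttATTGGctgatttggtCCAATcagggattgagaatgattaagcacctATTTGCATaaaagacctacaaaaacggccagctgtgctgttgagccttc
HIST1H4H: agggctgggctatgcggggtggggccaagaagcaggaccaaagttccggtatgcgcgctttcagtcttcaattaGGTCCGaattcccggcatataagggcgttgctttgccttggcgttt
HIST4H4: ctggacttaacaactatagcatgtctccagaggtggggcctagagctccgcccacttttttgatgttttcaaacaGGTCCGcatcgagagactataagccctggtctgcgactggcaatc
The octamer ATTTGCAT, a site of the POU factor OCT1, was found in 10 of 14 H2A and 8 of 12 H2B windows. It was in 1 of 11 H3 windows and in 0 of 12 H4 windows. That H3 window, of HIST1H3D, is the same window as that of the H2A gene HIST1H2AD. CCAAT, the box bound by NF-Y, was in every H2A, H2B and H3 window matched and in 3 of 12 H4 windows. GGTCCG, part of the H4 element bound by HINFP, was in all 12 H4 windows and in 1 window each of the other types. TATAAA, the TATA box, was in 11 H2A, 8 H2B, 8 H3 and 6 H4 windows, and TTTCGCGC, an E2F site, in 5, 6, 1 and 0. Over 35116 RefSeq promoters of the same length these motifs were found in 1.77% (octamer), 34.6% (CCAAT), 11.3% (GGTCCG), 11.5% (TATAAA) and 0.515% (TTTCGCGC). A match is only a match of letters in these windows, and neighbouring genes that start back to back share part of theirs.

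The libraries held from 7667997 to 14047498 counts, and all 64 genes were among the 17175 genes kept for testing. MBD2 mRNA lay between 14.6 and 24.5 CPM (counts scaled to library size with the cpm function of edgeR) in the 6 knockout libraries and between 58.2 and 78.7 CPM in the 6 control libraries. All 12 listed erythroid markers passed the filter on low counts, with 11 higher in knockout cells after differentiation, against 16.8% of all genes. They include HBB, HBA1 and HBA2, whose levels are uncertain because the kit removed globin RNA. After differentiation globin genes held 1.25%, 0.46% and 0.22% of counts in knockout libraries and 0.15%, 0.083% and 0.31% in control libraries. No listed lymphoid or stromal marker passed it, with summed levels up to 1.47 and 1.89 CPM in any library. Of the mast cell and basophil markers 8 of 12 passed. Before differentiation the 12 summed to 957 to 1011 CPM in control and 749 to 778 CPM in knockout libraries. After it they summed to 687 to 701.5 CPM in control and 387 to 413 CPM in knockout libraries. Of the megakaryocyte markers 2 of 12 passed. Neutrophil and monocyte markers, of which 6 of 14 passed, summed to 14.4 to 16.2 CPM in control and 32.8 to 42.0 CPM in knockout libraries before differentiation. After it the sums were 4.84 to 5.38 CPM in control and 5.38 to 8.72 CPM in knockout libraries.

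Core histone genes took up a larger part of the RNA in differentiated knockout cells than in any other group. They held 1.36%, 1.49% and 1.39% of all counts in the control libraries after differentiation, and 1.72%, 1.67% and 1.77% in the knockout libraries. The 3 knockout libraries lay above the 3 controls without overlap, by a factor of 1.22. Before differentiation the shares were 1.44%, 1.499% and 1.55% in control and 1.65%, 1.59% and 1.38% in knockout libraries, and these groups overlapped. The exact permutation test (two-sided) gave p = 0.1 after differentiation and p = 0.7 before it. The first is the smallest p that 3 against 3 libraries can give, and the Benjamini-Hochberg adjusted value over 36 such share comparisons was 0.24.

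**Figure D1:**
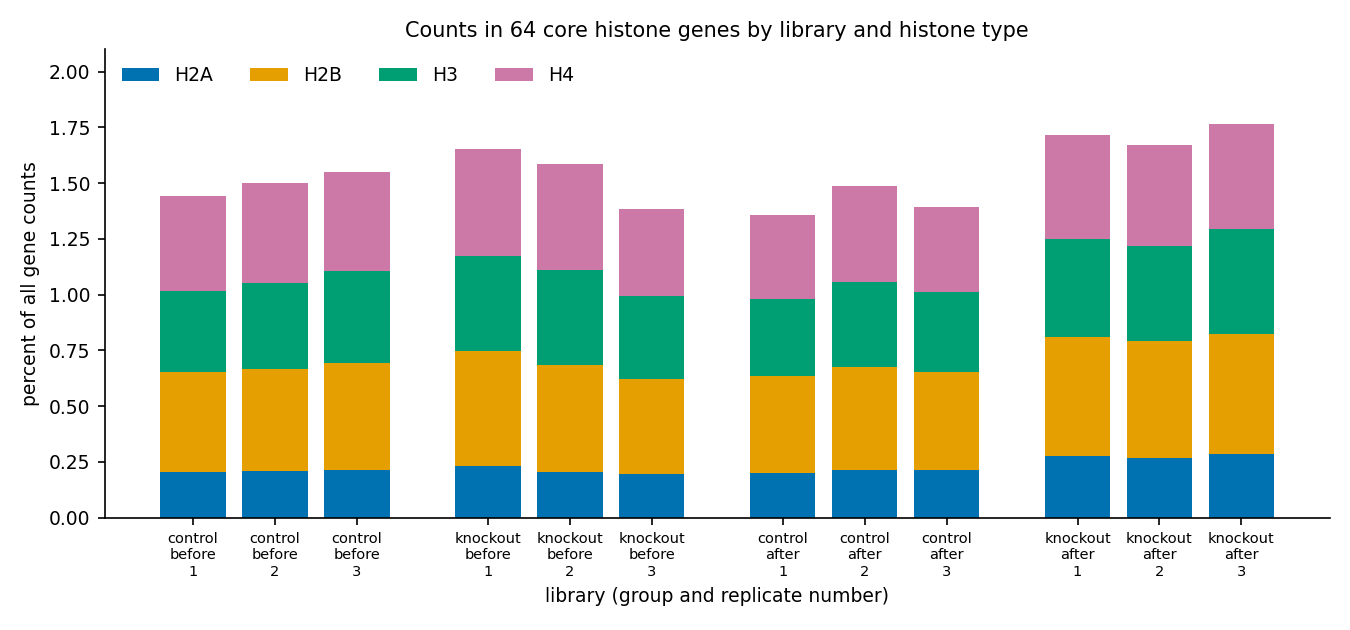
Percent of all gene counts (vertical axis) held by the 64 core histone genes in each of the 12 libraries (horizontal axis), stacked by histone type. The 3 knockout libraries after differentiation reach 1.67% to 1.77%, above the 1.36% to 1.65% of the other 9 libraries.

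All 4 histone types held a larger share in knockout than in control libraries after differentiation. H2A genes went from 0.209 ± 0.007% of counts in control to 0.277 ± 0.010% in knockout cells after differentiation (SD, n = 3), by a factor of 1.32. The factor was 1.2 for H2B, 1.23 for H3 and 1.17 for H4, and none of the 4 types overlapped between the groups (exact permutation p = 0.1 for each, adjusted p = 0.24). Against knockout libraries before differentiation the H4 share overlapped, at 0.463% after and 0.45% before it. The H2A, H2B and H3 shares did not overlap there (exact permutation p = 0.1 for each, adjusted p = 0.24). Within the core histone counts, the H2A part was 14.8 ± 0.4% in control and 16.1 ± 0.1% in knockout libraries after differentiation, and the H4 part was 28.0 ± 0.9% and 27.0 ± 0.2%. The H2A parts did not overlap and neither did the H4 parts (exact permutation p = 0.1, adjusted p = 0.24 for both). The H2B part was 31.45 ± 0.5% and 31.0 ± 0.6% (exact permutation p = 0.4, adjusted p = 0.6), and the H3 part 25.7 ± 0.2% and 25.9 ± 0.6% (p = 0.9, adjusted p = 0.926), and both overlapped between the groups. Since 3 against 3 libraries cannot give p under 0.1, this test could not resolve a difference in makeup by type. Whether more cells in S phase or more histone mRNA per such cell lay behind these shares cannot be told apart in bulk RNA.

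Levels of single genes per kilobase of gene model differed widely within each type. Mean levels over all libraries ran from 16.9 to 617 CPM per kilobase for H2A, from 2.75 to 1747 for H2B, from 13.2 to 1842 for H3 and from 11.1 to 3069 for H4, with medians of 275, 392, 370 and 583. The 49 models under 1000 bases had a median of 462 CPM per kilobase and the 15 longer models 70.4, so levels per kilobase are best compared among models of like length. The lowest H2B level was that of HIST2H2BC, an annotated pseudogene with a model of 4527 bases. The lowest H2A level was that of HIST1H2AM, whose model shares 346 of 393 bases with other gene models, so its counts are uncertain. The highest per type were HIST1H4K, HIST1H3B, HIST1H2BK and HIST1H2AJ. The HIST1H4K model shares all of its 50-base stretches with HIST1H4J, and HIST1H2BK and HIST1H2AJ share 74.1% and 83.7% with other genes, so how reads split between these copies is uncertain.

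Before differentiation few core histone genes differed between knockout and control cells. The test called 10 of 64 higher and 2 lower, against 9.07% and 8.15% of all genes tested. The genes called higher were HIST2H2AB, HIST3H2A, HIST1H2BN, HIST2H2BE, HIST3H2BA, HIST3H2BB, HIST1H3D, HIST1H4A, HIST1H4I and HIST2H4B, and those called lower were HIST1H4F and HIST1H4L. The median log2 fold change was 0.10 over the 64 genes and -0.00 over all genes. By type, 2 of 15 H2A, 4 of 22 H2B, 1 of 13 H3 and 3 of 14 H4 genes were higher. Only HIST3H2BA and HIST3H2BB kept their call in every alternative setting and without each single library. The count of higher genes was 4 without control replicate 1, 2 without control replicate 2, 2 without knockout replicate 1 and 18 without knockout replicate 3.

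HIST3H2BB and HIST3H2BA of chromosome 1 had the largest changes in that comparison. HIST3H2BB (ENSG00000196890.4, hg38, chromosome 1, 228458107 to 228460470, plus strand, 1 exon) encodes an H2B protein. It measured 27.4, 27.8 and 25.5 CPM in control libraries and 67.3, 59.5 and 36.6 CPM in knockout libraries before differentiation. Every knockout library lay above the controls, with the third much nearer to them than the others, and the log2 fold change was 1.02 ± 0.15 (SE, edgeR adjusted p = 1.24e-04). HIST3H2BA (ENSG00000181201.3, chromosome 1, 228464103 to 228464626, minus strand), annotated as a unitary pseudogene, measured 2.91, 4.198 and 3.14 CPM in control against 9.38, 7.90 and 4.98 CPM in knockout libraries, a change of 1.11 ± 0.24 (adjusted p = 0.00352). Of its 50-base stretches 30.1% occur in other genes, mostly HIST3H2BB, so its counts are uncertain.

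HIST3H2A (ENSG00000181218.5, chromosome 1, 228456979 to 228457873, minus strand, 1 exon), an H2A gene, starts 233 bases from HIST3H2BB on the other strand. Before differentiation it measured 11.3, 9.68 and 10.2 CPM in control against 15.9, 12.4 and 11.8 CPM in knockout libraries, with the knockout libraries just above the controls. Its change of 0.38 ± 0.12 (adjusted p = 0.0439) was not called without knockout replicate 1 (0.22, adjusted p = 0.24) or with DESeq2 (adjusted p = 0.0748).

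HIST1H4F (ENSG00000274618.1, chromosome 6, 26240426 to 26240737, plus strand), an H4 gene, fell in knockout cells before differentiation. It measured 412, 410.0 and 373 CPM in control against 335, 325 and 240.4 CPM in knockout libraries, with no overlap and the third knockout library lowest. The log2 fold change was -0.41 ± 0.11 (adjusted p = 0.0151), and without that library it was -0.28 (adjusted p = 0.0609). HIST1H4L, another H4 gene, measured 229, 214 and 224 CPM in control against 204, 188 and 180.3 CPM in knockout libraries, a change of -0.22 ± 0.07 (adjusted p = 0.0261), also not called without that library (adjusted p = 0.0949).

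After differentiation most core histone genes were higher in knockout cells. The test called 52 of 64 higher and 1 lower, against 16.8% and 16.3% of all genes tested, so 81.2% of the core histone genes were called higher. The median log2 fold change was 0.48 over the 64 genes and -0.01 over all genes tested. The libraries of the groups did not overlap for 53 genes, 52 of them higher, where 23.2% of all genes were higher without overlap. The genes not called were HIST1H2AM, HIST1H2BD, HIST1H2BI, HIST2H2BA, HIST2H2BC, HIST2H2BD, HIST1H3E, HIST1H3G, HIST1H4D, HIST1H4F and HIST1H4H. The count of higher genes ran from 44 to 52 as each library was left out, and 38 of the 53 calls held in every setting tried. With library sizes alone and no scaling factors, 39 were higher and 2 lower, and the median was 0.32 where that of all genes moved to -0.17.

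**Figure D2:**
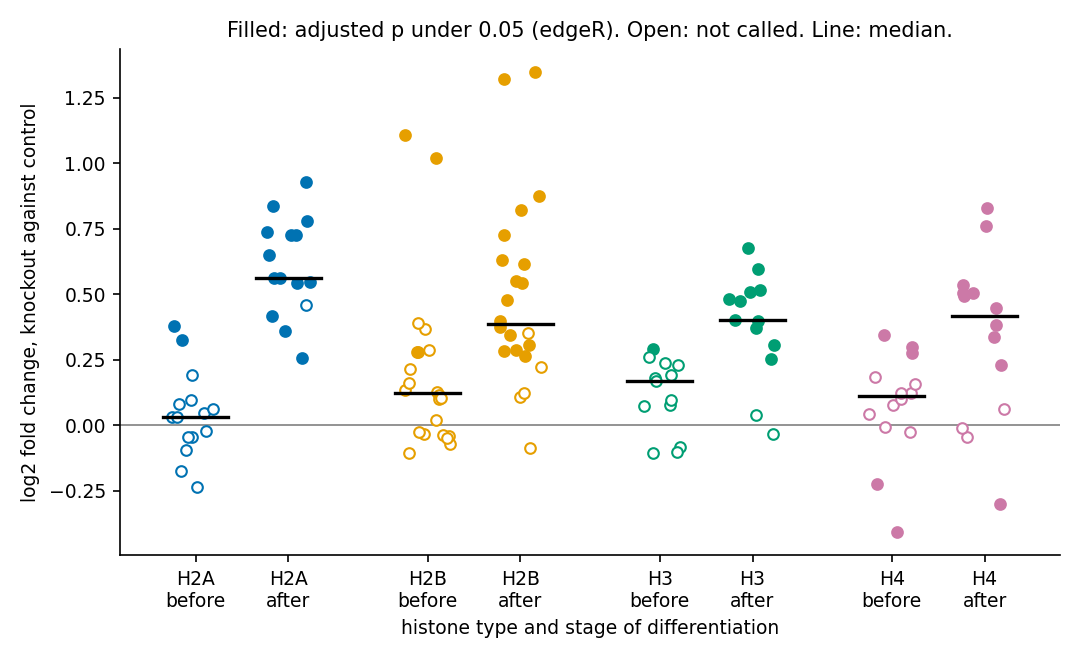
Log2 fold change of knockout against control (vertical axis) for each of the 64 genes, by histone type and stage (horizontal axis), with filled points for genes called by edgeR and lines at the medians. The medians lie between 0.03 and 0.17 before and between 0.39 and 0.56 after differentiation.

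By type, 14 of 15 H2A genes were higher, with a median log2 fold change of 0.56. Of 22 H2B genes 17 were higher (median 0.39), of 13 H3 genes 11 (median 0.40) and of 14 H4 genes 10 (median 0.42). The H4 gene HIST4H4 was the only one lower. All 5 annotated pseudogenes are H2B genes and are counted in every H2B total given here. Of these 5 genes 2 were called higher (median 0.35), against 50 of the other 59 genes. By place, 37 of 45 HIST1 genes were higher with a median of 0.40, 12 of 15 HIST2 genes with a median of 0.72, and all 3 HIST3 genes with a median of 1.32. The higher HIST2 medians held within types, at 0.76 against 0.55 for H2A, 0.54 against 0.36 for H2B, 0.48 against 0.40 for H3 and 0.79 against 0.38 for H4, although both HIST2 H4 genes and several others there are near-identical copies of each other. The 6 HIST2 H2B genes include the annotated pseudogenes HIST2H2BA, HIST2H2BB, HIST2H2BC and HIST2H2BD. No test compared types or clusters, whose members share libraries and sequence.

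The models that hold only coding bases (29 genes, 24 higher, median 0.48) and those that run beyond it (30 genes, 26 higher, median 0.48) gave like values. Among the 37 genes that share under 10% of their 50-base stretches with other genes, 29 were higher with a median of 0.40. These stretches come from release 29 transcripts, some longer than the counted models, so the counted bases are not shown to be unique. Among the 39 genes that share no exon base with another gene model, 29 were higher, also with a median of 0.40. Of 114 tested protein-coding genes that are no histones and have models under 1000 bases, 13 were higher and 24 lower, with a median of -0.11. They were not matched to the core histone genes in level, and the part of model length was not tested.

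The gene with the highest level per kilobase of each type was among those called. HIST1H4K (ENSG00000273542.1, chromosome 6, 27831216 to 27831527, minus strand, 1 coding exon) measured 817, 932 and 791 CPM in control against 1269, 1157 and 1174 CPM in knockout libraries after differentiation, with no overlap and a log2 fold change of 0.50 ± 0.09 (adjusted p = 4.33e-04). HIST1H3B (ENSG00000274267.1, chromosome 6, 26031650 to 26032060, minus strand, 1 coding exon), which shares no 50-base stretch with another gene, measured 647, 698 and 688 CPM in control against 989, 942 and 976 CPM in knockout libraries. Each knockout library exceeded each control, and the change was 0.52 ± 0.07 (adjusted p = 1.22e-05). HIST1H2BK (ENSG00000197903.7, chromosome 6, 27146418 to 27146798, minus strand) measured 618, 656 and 655 CPM against 972, 893 and 956 CPM, a change of 0.55 ± 0.08 (adjusted p = 2.57e-05). HIST1H2AJ (ENSG00000276368.1, chromosome 6, 27814354 to 27814740, minus strand) measured 201, 218 and 218 CPM against 315, 302 and 323 CPM, a change of 0.56 ± 0.07 (adjusted p = 1.70e-05). Before differentiation the groups overlapped for all 4 genes, with adjusted p from 0.283 to 0.763.

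Second in level per kilobase for their types were HIST1H2AE, HIST1H2BH, HIST1H3C and HIST1H4E, and each was called higher in knockout cells after differentiation. HIST1H2AE, an H2A gene, measured 181, 217 and 203 CPM in control against 280, 264 and 260 CPM in knockout libraries. HIST1H2BH measured 210.1, 242 and 224 CPM against 288, 269 and 255 CPM. Every knockout library lay above every control in both genes. The H3 gene HIST1H3C measured 388, 426 and 408 CPM against 547, 508 and 553 CPM, and the H4 gene HIST1H4E 448, 508 and 468 CPM against 598, 588 and 611 CPM, also with no overlap. In the order named, the log2 fold changes were 0.42 ± 0.09 (adjusted p = 0.00193), 0.26 ± 0.07 (0.00808), 0.40 ± 0.07 (4.45e-04) and 0.34 ± 0.11 (0.0287). HIST1H2BH was not called without control replicate 1 (adjusted p = 0.0548) or knockout replicate 1 (0.0524), and HIST1H4E lost its call without each of 5 single libraries (adjusted p up to 0.105). None of these 4 genes was called before differentiation.

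The largest changes after differentiation were in the 3 HIST3 genes. HIST3H2BB measured 25.6, 28.0 and 29.7 CPM in control against 73.2, 66.9 and 71.7 CPM in knockout libraries, a change of 1.35 ± 0.15 (adjusted p = 2.95e-06). HIST3H2BA measured 3.66, 4.65 and 2.63 CPM against 8.56, 10.8 and 8.58 CPM, a change of 1.32 ± 0.24 (adjusted p = 4.12e-04). HIST3H2A measured 16.4, 17.9 and 18.1 CPM against 32.1, 32.8 and 34.9 CPM, a change of 0.93 ± 0.11 (adjusted p = 5.74e-06). In all 3 genes every knockout library lay above every control. Their levels per kilobase were low, at 29.9, 17.7 and 37.2 CPM per kilobase in knockout cells after differentiation.

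Next in size were HIST2 genes that stand back to back. HIST2H2BE, an H2B gene, rose by 0.88 ± 0.07 (adjusted p = 7.11e-08). HIST2H2AC (ENSG00000184260.5, chromosome 1, 149886975 to 149887364, plus strand, 1 exon), the H2A gene 322 bases away, measured 47.8, 47.5 and 42.7 CPM in control against 84.3, 80.9 and 81.4 CPM in knockout libraries. The knockout libraries were all far above the controls, and the change was 0.83 ± 0.07 (adjusted p = 8.08e-08). Of its 50-base stretches 30.5% occur in HIST2H2AA3, and 141 of its 390 bases lie in another gene model, so its counts are uncertain. Before differentiation HIST2H2AC measured 45.9, 45.0 and 43.8 CPM in control against 50.3, 45.8 and 44.4 CPM in knockout libraries, which overlapped (0.06 ± 0.07, adjusted p = 0.613).

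Pairs whose counted models start within 1000 bases of each other on opposite strands numbered 13, at 218 to 356 bases apart. Some rest on how the models are drawn. The HIST1H2BB model has 2 exons and shares 132 bases with HIST1H2BC, which places it beside HIST1H2AC. Its RefSeq promoter window lies elsewhere, at chr6:26043714-26043833. The HIST1H3J model overlaps that of HIST1H2AM, and both are paired with HIST1H2BO. In 11 pairs both genes were higher in knockout cells after differentiation, the pairs of HIST1H2BB and HIST1H3J among them. Of the 64 genes 81.2% were called higher in that comparison, and of all genes 16.8%. Whether pairing mattered was not tested. The members of a pair did not always move alike. HIST1H2BL fell with differentiation in control cells by 0.53 on the log2 scale while its partner HIST1H2AI was not called (-0.11), and HIST3H2A rose by 0.76 while HIST3H2BB was not called (0.04).

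HIST4H4 (ENSG00000197837.3, chromosome 12, 14767999 to 14771131, minus strand) went the other way. It measured 18.2, 21.5 and 20.2 CPM in control against 15.8, 15.7 and 17.3 CPM in knockout libraries after differentiation, a change of -0.30 ± 0.09 (adjusted p = 0.0179). The groups did not overlap but came within 1 CPM of each other. Leaving out control replicate 2 ended the call (-0.24, adjusted p = 0.101), as did leaving out knockout replicate 1 (-0.28, 0.0651) or knockout replicate 2 (-0.28, 0.0701). Before differentiation it measured 36.6, 38.3 and 36.8 CPM in control against 40.0, 41.9 and 39.7 CPM in knockout libraries, and was not called (0.12 ± 0.08, adjusted p = 0.33).

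In control cells differentiation changed core histone genes in both directions. The test called 12 of 64 higher and 13 lower after differentiation, against 21.5% and 22.3% of all genes, so neither share stood above that of all genes. The median log2 fold change was 0.02, with 0.01 over all genes. Higher were 5 of 15 H2A, 3 of 22 H2B, 3 of 13 H3 and 1 of 14 H4 genes, and lower were 1, 5, 2 and 5. The count of higher genes was 7 without control replicate 2 from before differentiation.

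The genes that fell most in control cells were HIST4H4, HIST1H2AB and HIST1H4H. HIST4H4 fell by 0.90 ± 0.08 on the log2 scale (adjusted p = 1.84e-07). HIST1H2AB (ENSG00000278463.1, chromosome 6, 26033176 to 26033568, minus strand, 1 coding exon), an H2A gene, measured 187, 179 and 178 CPM before and 101, 107 and 101 CPM after differentiation, and fell by 0.81 ± 0.07 (adjusted p = 1.07e-07). HIST1H4H (ENSG00000158406.3, chromosome 6, 26285113 to 26285509, minus strand), an H4 gene, measured 242, 271 and 275 CPM before and 136, 182 and 150.5 CPM after, and fell by 0.75 ± 0.11 (adjusted p = 4.00e-05). No library after differentiation reached the level before it in any of these genes. HIST1H2BH fell by 0.64 ± 0.07 (adjusted p = 1.43e-06), from 348, 358 and 348 CPM to 210.1, 242 and 224 CPM.

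The genes that rose most in control cells were HIST3H2A, HIST1H2BN and HIST2H3A. HIST3H2A rose by 0.76 ± 0.12 (adjusted p = 8.21e-05). HIST1H2BN measured 118, 126 and 137 CPM before and 198, 209 and 187 CPM after differentiation, and rose by 0.64 ± 0.08 (adjusted p = 6.96e-06) with no overlap. Its model of 5477 bases overlaps HIST1H2AK and HIST1H2AL, so its counts are uncertain. HIST2H3A, an H3 gene with a full copy in HIST2H3C, measured 32.7, 31.5 and 33.7 CPM before and 41.5, 46.1 and 43.1 CPM after differentiation, and rose by 0.42 ± 0.10 (adjusted p = 0.00263) with no overlap.

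In knockout cells most core histone genes were higher after differentiation. The test called 43 of 64 higher and 4 lower, against 28% and 27.7% of all genes, with a median log2 fold change of 0.37 over the 64 genes and 0.03 over all genes. Higher were 14 of 15 H2A genes (median 0.62), 13 of 22 H2B (0.35), 9 of 13 H3 (0.33) and 7 of 14 H4 genes (0.28). All 12 genes that rose in control cells also rose in knockout cells, and 29 genes not called in control cells rose there. Of the 13 genes that fell in control cells, 4 fell in knockout cells too (HIST4H4, HIST1H4H, HIST1H2BH and HIST1H2BI), 2 rose (HIST1H2BB and HIST1H3F) and 7 were not called. With library sizes alone, 32 were higher and 10 lower, and the median was 0.19 where that of all genes was -0.16.

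**Figure D3:**
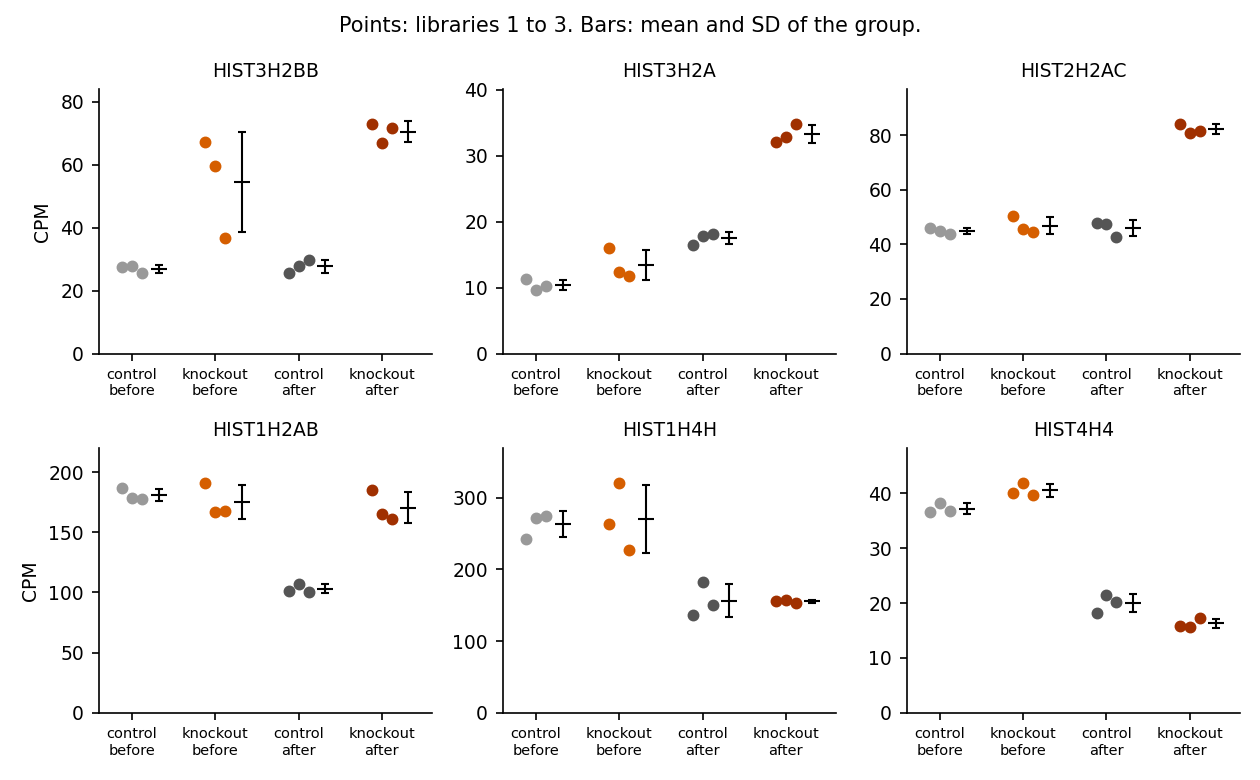
CPM (vertical axes, from 0) of 6 core histone genes in the 3 libraries of each group, with the mean and SD beside the points. HIST2H2AC is at 80.9 to 84.3 CPM in knockout libraries after differentiation and at 42.7 to 50.3 CPM in the other 9, while HIST4H4 and HIST1H4H are lower after differentiation in both genotypes.

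The largest rises in knockout cells were those of HIST3H2A (1.30 ± 0.11, adjusted p = 5.16e-08), HIST2H2AB (0.82 ± 0.09, adjusted p = 1.02e-06) and HIST2H2AC (0.81 ± 0.07, adjusted p = 4.29e-08), all H2A genes. HIST2H2AB, which lies next to HIST2H2AC, measured 56.2, 44.7 and 42.6 CPM before and 88.4, 81.7 and 84.1 CPM after differentiation. The largest falls were those of HIST4H4 by 1.32 ± 0.09 (adjusted p = 1.64e-09), HIST1H4H by 0.80 ± 0.11 (adjusted p = 1.21e-05) and HIST1H2BH by 0.40 ± 0.07 (adjusted p = 1.39e-04). HIST1H2BH measured 377, 360.0 and 333 CPM before and 288, 269 and 255 CPM after differentiation in knockout cells, with no overlap. HIST1H4H measured 263, 321 and 227 CPM before and 156, 157 and 154 CPM after differentiation in knockout cells, close to the level of the controls after it. HIST1H2AB, which fell in control cells, was not called here. It measured 191, 167 and 167 CPM before and 185, 165 and 161 CPM after differentiation, which overlapped (-0.04 ± 0.07, adjusted p = 0.653).

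The knockout difference was larger after differentiation than before it for many core histone genes. The interaction contrast, the knockout effect after differentiation minus that before it, was called higher for 32 of 64 genes and lower for 1, against 6.28% and 6.68% of all genes. The median was 0.38 over the 64 genes and -0.01 over all genes. It was higher for 12 of 15 H2A genes (median 0.59), 9 of 22 H2B (0.32), 6 of 13 H3 (0.36) and 5 of 14 H4 genes (0.35), and lower for HIST4H4. The value was above 0 for 59 of 64 genes. The count ran from 24 to 37 as single libraries were left out, and was 19 with library sizes alone, where the median was 0.25 and that of all genes -0.14.

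The interaction was largest for HIST1H2AB (0.77 ± 0.10, adjusted p = 9.53e-05), HIST2H2AC (0.77 ± 0.10, adjusted p = 9.17e-05) and HIST1H2AI (0.72 ± 0.15, adjusted p = 0.00324), again H2A genes. The first 2 reached the same value in different ways. HIST1H2AB fell with differentiation in control cells and was not called in knockout cells, while HIST2H2AC was not called in control cells (0.04 ± 0.07, adjusted p = 0.699) and rose in knockout cells. HIST1H2AI, of which 62.3% of 50-base stretches occur in other genes, measured 151, 172 and 181 CPM in control against 248, 244 and 244 CPM in knockout libraries after differentiation, with no overlap. The HIST3 genes had interactions of 0.33 ± 0.22 for HIST3H2BB (adjusted p = 0.366), 0.22 ± 0.35 for HIST3H2BA (0.745) and 0.55 ± 0.17 for HIST3H2A (0.039). The last call was lost with DESeq2 (adjusted p = 0.0559) and without 11 of the 12 libraries in turn. The interaction of HIST4H4 was -0.42 ± 0.12 (adjusted p = 0.0277), lost without any of 7 single libraries (adjusted p from 0.053 to 0.0974).

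**Figure D4:**
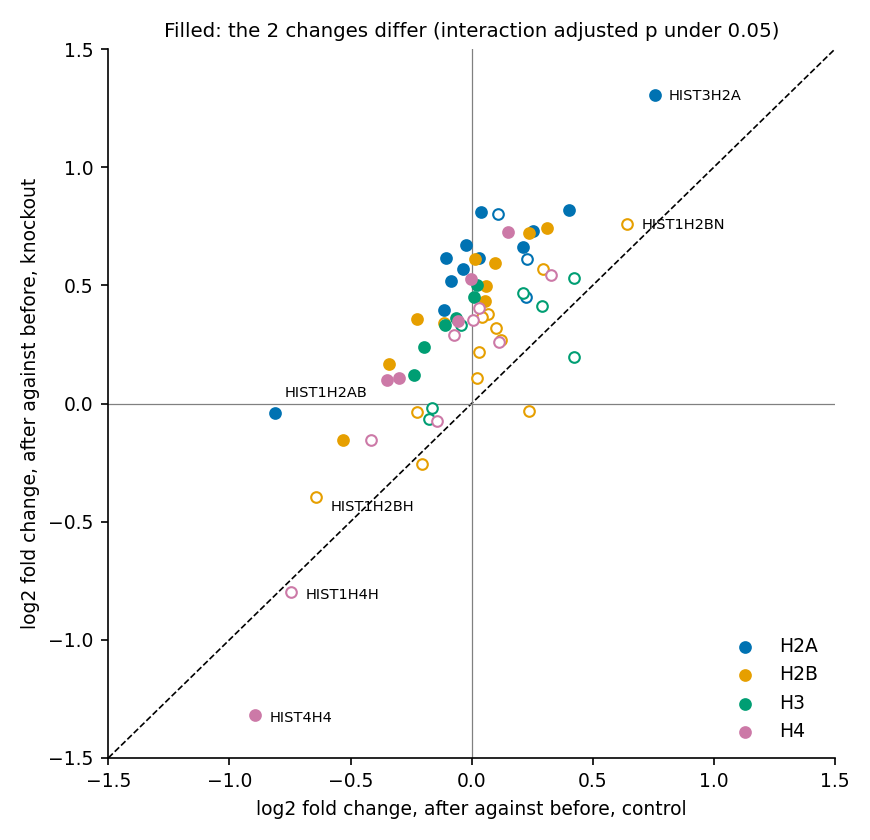
Log2 fold change after against before differentiation in knockout cells (vertical axis) against the same in control cells (horizontal axis), 1 point per gene coloured by histone type, filled where the interaction was called, with a dashed line where both are equal. Of 64 genes 59 lie above the line, and HIST4H4, at -0.90 and -1.32, is the only filled point below it.

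Across the 64 genes the changes with differentiation in control and knockout cells, which share no library, had a Pearson r of 0.80. The knockout effects before and after differentiation, which also share no library, had a Pearson r of 0.62. These are descriptions across genes that share sequence and chromosome position, with no p. Of the 64 genes 10 were higher in knockout cells at both stages, 41 after differentiation only by the calls, and 10 were not called at either stage. HIST1H4F was lower before and not called after differentiation, and HIST4H4 not called before and lower after it. HIST1H4L was lower before and higher after it, with both calls lost in some settings. The median knockout log2 fold change after differentiation was 0.55 for genes with the octamer in their promoter window and 0.47 for those without, and it lay between 0.45 and 0.53 with or without each of the other motifs, apart from 0.55 for genes with TTTCGCGC. Over 49 windows the number of CpG pairs (3 to 27, median 11, against 14 for all promoters) had a Pearson r of 0.35 with that change, given as a description. Near-identical copies are among the windows with many pairs. HIST2H2AA3 and HIST2H2AA4 held 27 each, HIST2H4A and HIST2H4B 21 each, and HIST2H3A and HIST2H3C 19 each. The windows of HIST3H2A and HIST3H2BB, at 18 each, overlap. This r therefore counts some promoters more than once, and whether CpG pairs mattered was not tested.

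Genes that help to transcribe, end or degrade histone mRNA were followed as a list of 21, of which 19 were found by name and tested. Before differentiation edgeR called 0 of them and DESeq2 0, with 2 higher and 0 lower at an unadjusted p under 0.05. After it 3 were higher and 4 lower in knockout cells, with a median of -0.03, and with 16.8% and 16.3% of all genes called these shares were near those of all genes. LSM11, a protein of the U7 particle that cuts histone mRNA at its end, measured 21.9, 19.3 and 23.3 CPM in control against 35.3, 36.9 and 35.2 CPM in knockout libraries after differentiation. Those groups did not overlap, and the change was 0.74 ± 0.10 (adjusted p = 1.79e-05), with an interaction of 0.82 ± 0.14 (adjusted p = 7.24e-04). CASP8AP2, a protein of the histone locus body, rose by 0.35 ± 0.08 (adjusted p = 0.00182) and SLBP by 0.21 ± 0.06 (adjusted p = 0.0089). NCBP1, a subunit of the cap-binding complex, was the lower gene with the smallest adjusted p (-0.20 ± 0.06, adjusted p = 0.0227). With differentiation 5 genes of this list were higher and 6 lower in control cells (21.5% and 22.3% of all genes), and 4 and 6 in knockout cells (28% and 27.7% of all genes).

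Of 24 histone chaperones, which carry histones to DNA, 3 were higher in knockout cells before differentiation, and 9 were higher and 1 lower after it (median 0.16). Of all genes 9.07% were higher before and 16.8% higher and 16.3% lower after differentiation, so the count before it was near that of all genes. HJURP, the chaperone of the centromeric H3 variant, rose by 0.47 ± 0.06 (adjusted p = 1.27e-05), MCM2, a helicase subunit that binds H3 and H4 and is also on the S phase list, by 0.59 ± 0.08 (adjusted p = 2.37e-05), HIRA, which deposits H3.3, by 0.59 ± 0.09 (adjusted p = 9.84e-05), and SUPT6H by 0.50 ± 0.08 (adjusted p = 1.79e-04). With differentiation 6 chaperones were higher and 4 lower in control cells, near the 21.5% and 22.3% of all genes, and 10 and 4 in knockout cells, where 28% and 27.7% of all genes were called. In the interaction, called higher for 6.28% of all genes, 2 were higher, ASF1A (0.52 ± 0.11, adjusted p = 0.00606) and HJURP (0.39 ± 0.09, adjusted p = 0.00661).

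Of 37 genes of S phase and replication, 9 were higher and 1 lower in knockout cells before differentiation (median 0.12), and 19 were higher and 3 lower after it (median 0.20). Of all genes 9.07% were higher and 8.15% lower before it, and 16.8% and 16.3% after it. E2F2, a transcription factor of the cell cycle with a known part in erythroid cells, measured 18.9, 20.9 and 16.8 CPM in control against 59.5, 57.7 and 68.3 CPM in knockout libraries after differentiation, far apart, with a change of 1.70 ± 0.10 (adjusted p = 7.50e-10). CCNE1, cyclin E1, rose by 0.87 ± 0.07 (adjusted p = 7.93e-08) and RRM2, a subunit of ribonucleotide reductase, by 0.64 ± 0.06 (adjusted p = 3.52e-07). With differentiation 8 genes of this list were higher and 4 lower in control cells, where the higher share was near the 21.5% of all genes and the lower one was under their 22.3%. In knockout cells 16 were higher and 7 lower (28% and 27.7% of all genes), and 5 were higher in the interaction (6.28% of all genes).

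Replication-independent histones, which cells make outside S phase, were followed for contrast. Of 11 tested, 1 was higher and 1 lower in knockout cells before differentiation, and 4 were higher after it, against 9.07%, 8.15% and 16.8% of all genes. H1F0, the linker histone H1.0 of cells that leave the cycle, measured 0.657, 0.406 and 0.286 CPM in control against 8.08, 7.81 and 7.24 CPM in knockout libraries before differentiation, and 41.8, 53.7 and 46.5 CPM against 217, 260.1 and 244 CPM after it. Its changes were 4.08 ± 0.25 (adjusted p = 5.07e-09) and 2.34 ± 0.09 (adjusted p = 1.11e-11). H3F3B, a gene of H3.3, fell by 0.41 ± 0.06 before differentiation (adjusted p = 1.70e-04), and CENPA, the centromeric H3, rose by 0.47 ± 0.10 after it (adjusted p = 0.00107). With differentiation 5 of the 11 were higher and 1 lower in control cells (21.5% and 22.3% of all genes), and 6 were higher in knockout cells (28% of all genes), where 0 were lower by edgeR, by DESeq2 and at an unadjusted p under 0.05. The replication-dependent linker histones showed 3 of 4 tested genes higher in knockout cells after differentiation (16.8% of all genes), with HIST1H1C at 0.54 ± 0.08 (adjusted p = 3.51e-05), and HIST1H1D lower before it (-0.42 ± 0.08, adjusted p = 0.0014).

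Several library measures moved with the same groups. Ribosomal RNA genes took 0.807 ± 0.242% of counts in control and 2.38 ± 0.57% in knockout libraries after differentiation, and 0.653 ± 0.378% and 1.05 ± 0.27% before it. TMM scaling factors were 0.883 to 0.931 in the knockout libraries after differentiation and 1.01 to 1.07 in the other 9. Other short RNAs that lack poly(A) tails (small nuclear, nucleolar and Cajal body RNAs) had 3 of 8 tested genes higher in knockout cells after differentiation (median 0.27, with 16.8% of all genes higher), among them SCARNA5 (0.41 ± 0.09, adjusted p = 0.0021), and 0 called before it by edgeR or DESeq2, with 0 higher and 1 lower at an unadjusted p under 0.05. All 8 were higher after differentiation in knockout cells (median 0.76), and 4 were higher in control cells, against 28% and 21.5% of all genes. With scaling factors computed without ribosomal, mitochondrial, globin and core histone genes the count after differentiation was again 52 higher and 1 lower. The part of RNA composition in the core histone values beyond that was not tested, nor was the part of the erythroid and mast cell markers that moved with the same groups.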

How the data were processed

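Total RNA was sequenced from 12 libraries of HUDEP-2 cells, 3 in each of 4 groups taken from the labels. The authors deposited raw counts per gene, made from read pairs with featureCounts 1.4.6-p4 over exons by gene identifier in GENCODE release 22 of hg38, with no option for strand, per the file headers. Reads from overlapping genes on opposite strands therefore cannot be told apart. The submitters' processing notes name featureCounts 1.2.6, Subread 1.6.2, Trimmomatic, FastQC and edgeR 3.18.1. Symbols came from GENCODE release 29 by identifier and named 56753 of 60483 genes, leaving 3730 without.

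Counts were fitted with edgeR 4.0.16 in R 4.3.3 (filterByExpr with the 4 groups, TMM factors, 1 mean per group fitted to all 12 libraries, quasi-likelihood F-test, two-sided). A gene was called at an adjusted p under 0.05 (Benjamini-Hochberg, 17175 genes), and the common biological coefficient of variation was 0.089. Standard errors are the log2 fold change divided by the square root of F. Levels are CPM from TMM-scaled library sizes, and shares of counts use the plain sum of counts. The fit was tried on simulated data for knockout against control before differentiation, and for no other comparison. Alternatives were DESeq2 1.42.0, other scaling factors, no filter, the replicate number as a block and each library left out.

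The genes, the lists beside them and their promoters were chosen with earlier results of these data known. Every core histone gene could be named. Values per library are given for the 2 highest per kilobase of each type and for up to 3 called genes per direction with the largest change in each comparison, and list genes for up to 4 with the smallest adjusted p. HIST2H2BE and HIST1H2BL fall outside that rule and were given values after these were seen. HIST1H2AD and HIST1H3D share 1 promoter window, and 15 genes had none. Protein sequences were not used here.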

Additional observations from a re-analysis of the deposited data

Results flagged for a closer look

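The knockout effect differed between the stages for 33 core histone genes by the test of the difference itself, the interaction contrast of edgeR at an adjusted p under 0.05. The values are the log2 knockout effect after differentiation minus that before it. Among H2A genes these were 0.77 for HIST1H2AB, 0.70 for HIST1H2AD, 0.51 for HIST1H2AE, 0.48 for HIST1H2AG, 0.72 for HIST1H2AI, 0.60 for HIST1H2AJ and 0.45 for HIST1H2AL. In the other clusters they were 0.59 for HIST2H2AA3, 0.60 for HIST2H2AA4, 0.42 for HIST2H2AB, 0.77 for HIST2H2AC and 0.55 for HIST3H2A. Among H2B genes they were 0.58 for HIST1H2BB, 0.38 for HIST1H2BC, 0.49 for HIST1H2BF, 0.50 for HIST1H2BJ, 0.43 for HIST1H2BK, 0.37 for HIST1H2BL, 0.44 for HIST1H2BO, 0.60 for HIST2H2BE and 0.51 for HIST2H2BF. H3 genes gave 0.44 for HIST1H3B, 0.48 for HIST1H3C, 0.43 for HIST1H3F, 0.44 for HIST1H3H, 0.36 for HIST1H3J and 0.43 for HIST2H3D. H4 genes gave 0.41 for HIST1H4C, 0.40 for HIST1H4J, 0.45 for HIST1H4L, 0.58 for HIST2H4A and 0.53 for HIST2H4B. HIST4H4 alone was negative, at -0.42. Of these 33 calls 19 held in every alternative setting and without each single library.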

How the results depend on the processing

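No called gene reversed its direction under any alternative. Counts of higher and lower genes are given below for knockout against control before and after differentiation, for differentiation in control and in knockout cells, and for the interaction. With single libraries left out, the higher counts ran from 2 to 18, 44 to 52, 7 to 13, 39 to 45 and 24 to 37, and the lower counts from 0 to 3, 0 to 1, 9 to 14, 3 to 6 and 0 to 1. Shares of counts ran from 1.471% to 1.523% (control before), 1.486% to 1.621% (knockout before), 1.375% to 1.440% (control after) and 1.694% to 1.742% (knockout after).

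Without a filter on low counts the lower counts became 1 for knockout before, 0 for knockout after and 0 for the interaction. With library sizes only they became 2 for knockout after and 10 for differentiation in knockout cells, and 19 genes were higher in the interaction. In 2 subsets chosen after seeing the data, fewer genes were counted, 37 with under 10% shared 50-base stretches and 39 sharing no exon base. Their higher counts were 6 and 5 for knockout before, 29 and 29 for knockout after, 25 and 21 for differentiation in knockout cells, and 17 and 15 for the interaction, and the second subset had 5 for differentiation in control cells. On TMM-scaled library sizes the shares were 1.43% and 1.49% before and 1.39% and 1.89% after differentiation, control first, so the gap after it was wider than on plain counts. On plain counts the shares of the models under 1000 bases were 1.198% and 1.21% before and 1.12% and 1.32% after differentiation, control first.

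The labels do not say what a replicate number stands for, so the fits do not pair the libraries by it. Of 18 same-numbered pairs 10, not all, had residual correlations over 0.1, and 9 of 12 libraries matched their own number best, which is a hint from the data, not the design, and leaves pairing possible. With the replicate number as a block the higher counts were 13, 53, 14, 45 and 38 and the lower counts 2, 1, 13, 4 and 1, with 0 calls lost. The cause of the shifts outside the subsets was not tested. A threshold of 30 counts gave 65 genes and one of 120 gave 64. With 3 libraries a group, changes of low genes such as HIST2H2BD are not resolved.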
